A study of Drosophila melanogaster with 4 samples.

Results

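The Enhancer of split complex is a run of small genes on chromosome arm 3R of Drosophila melanogaster that ends beside groucho (gro). The 8 genes described here are its 7 basic helix-loop-helix (HLH) genes, E(spl)mdelta-HLH, E(spl)mgamma-HLH, E(spl)mbeta-HLH, E(spl)m3-HLH, E(spl)m5-HLH, E(spl)m7-HLH and E(spl)m8-HLH, together with gro. They were listed by name, and all 8 were found among the 13962 protein-coding genes of the gene table used. Of those, 3387 were placed on 3R and serve as the background.

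Background knowledge of the pathway is as follows. When Notch is activated by a ligand on a neighbouring cell, its intracellular part enters the nucleus and joins the DNA-binding protein Su(H), and the genes of the complex are among the best known direct targets. The HLH genes encode repressors of the Hes family, which hold back neural and other fates. They act with Groucho, a widely expressed corepressor with WD40 repeats that binds the tetrapeptide at the end of the HLH proteins and serves many other repressors. The complex is therefore a place where genes that depend on a signal lie directly beside a gene that most cells use.

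The libraries came from Kc167, a single female cell line of embryonic origin, labelled late embryonic in stage with the genotype se/e, and no treatment is named. All 4 libraries share this source. The 2 ChIP libraries were made with a rabbit polyclonal antibody against RNA polymerase II phosphorylated on serine 5 of its C-terminal repeat (Ser5P), a form found chiefly at promoters and early in transcription, and the 2 input libraries hold unprecipitated DNA. Values came from 3 lists of enriched regions, 1 for each ChIP replicate and 1 deposited by the authors for both together, here the combined list. No list for an input library is analysed here, and so the lists have no control level beside them.

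Each region has a position and a score set by the authors, on a scale the files do not name. Genes were compared by score only within a list, where rank 1 is the highest score. Means and SDs over the replicates use the scores of both lists as they stand, and the median score was 1.46 in replicate 1 and 1.49 in replicate 2. The combined list held 5074 enriched regions with a median score of 1.37 and a median width of 2.73 kb, and the replicate lists held 4874 and 4822. The lists give no read counts, so the depth is unknown. The gene table gives no strand, so which end of a gene is its start site was not known, and both annotated ends are reported as the lower and the higher end by position. Region positions are those of FlyBase release 5.

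Among the HLH genes, E(spl)mbeta-HLH and E(spl)m3-HLH lay under regions of their own, E(spl)m8-HLH was touched by the region at the neighbouring end of gro, and the other 4 had no region. The pattern was the same in the combined list and in both replicate lists. An enriched region held at least 1 annotated end of 3 of the 7 HLH genes (42.9%) in each list, against 57.8% of the 3R protein-coding genes in the combined list, with 56.6% and 56.7% in replicates 1 and 2. Both ends were held in 1 of the 7, against 29.8% of the 3R genes in the combined list and 26.5% in each replicate. The number of HLH genes with a region over the start site was therefore at least 1 and at most 3.

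The HLH genes are short, from 769 to 1305 bp, and a short gene has both ends in a region more easily. Among the 610 protein-coding genes of 3R within that range of length, 48.4% had an end and 37.4% had both ends in a combined region. The replicates gave 46.9% and 47.2% for 1 end, and 34.8% and 35.2% for both ends. The share of HLH genes with an end in a region was near that of other short genes, so it is no result about the HLH genes, and no test was made over 7 genes. Regions overlapped the body of 3 of the 7 HLH genes by at least 1 bp, against 58.8% of 3R genes in the combined list, with 57.7% and 57.8% in replicates 1 and 2. Among the short genes this share was 48.4% in the combined list, with 46.9% and 47.2% in replicates 1 and 2. The count was 2 when at least 50% of the gene had to be overlapped, a setting with no share of 3R genes beside it.

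**Figure D1:**
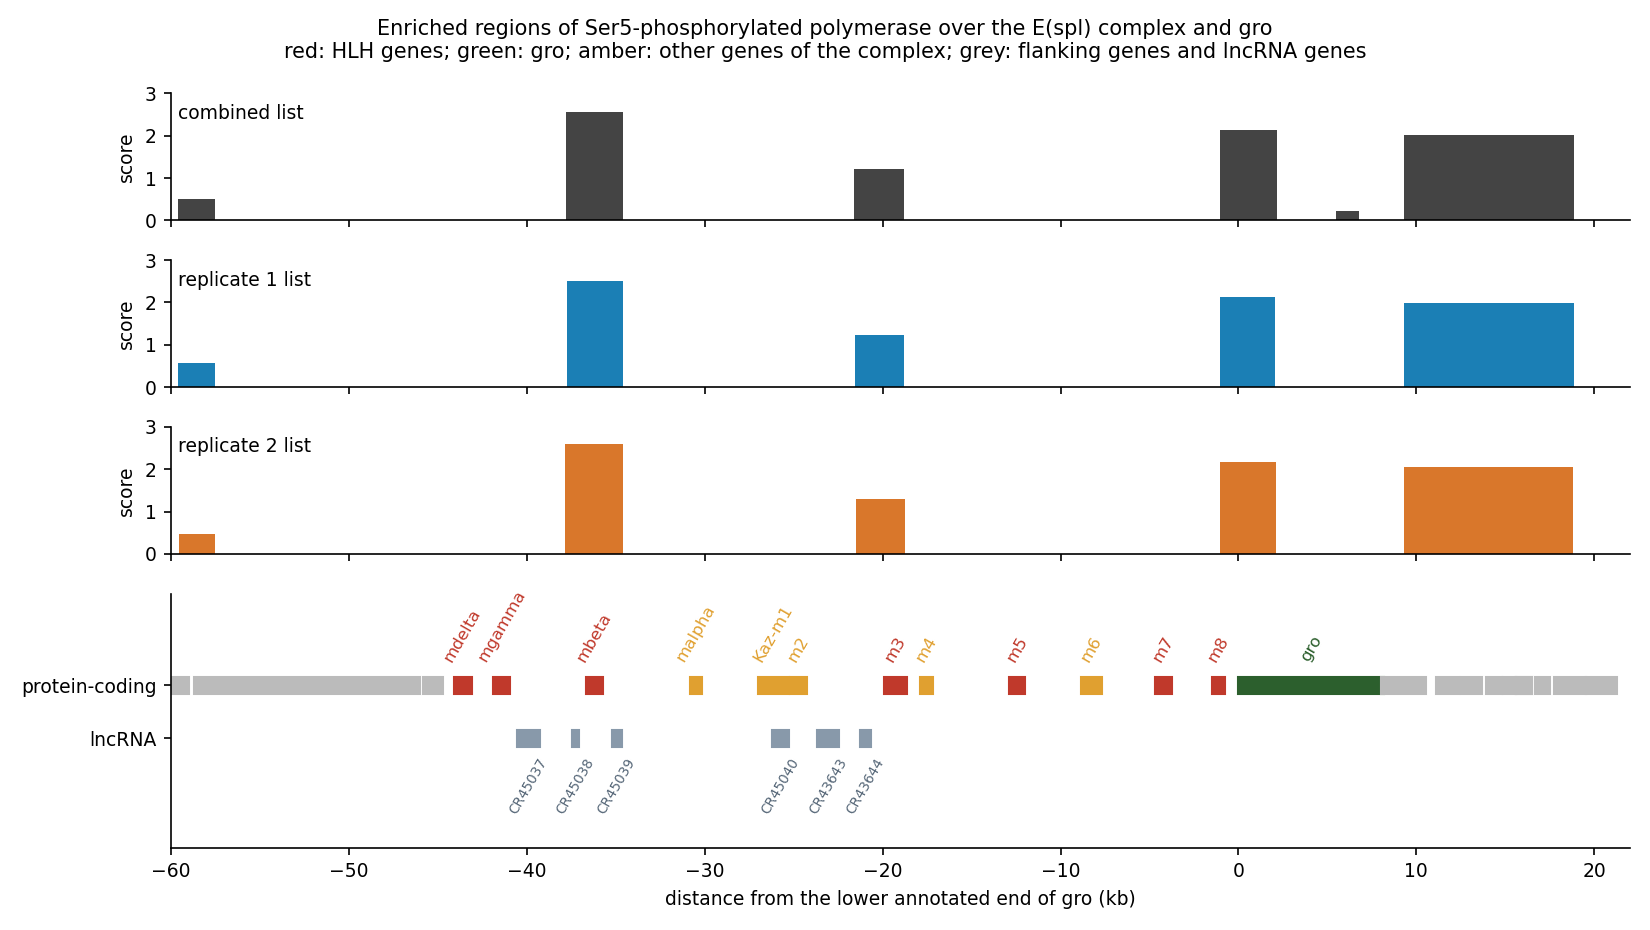
Map of the complex and gro: the upper panels show the regions of each list as bars whose height is the authors' score, and the lower panel shows annotated genes, against distance in kb from the lower end of gro. E(spl)mbeta-HLH, E(spl)m3-HLH and the lower end of gro lie under regions in all 3 lists, while a small region inside gro is present in the combined list alone.

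E(spl)mbeta-HLH carried the highest score of the complex. Its region lay at 3R:21829638-21832868 in the combined list, with a score of 2.55, rank 560 of 5074 and a width of 3.23 kb. In replicate 1 the region scored 2.51 (rank 664 of 4874, width 3.15 kb), and in replicate 2 it scored 2.60 (rank 521 of 4822, width 3.26 kb). The replicate scores averaged 2.56 ± 0.0644 (SD, n = 2), and the region was among the top 10.8% to 13.6% of each list.

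The whole 978 bp of E(spl)mbeta-HLH lay inside the region. The combined region began 1130 bp below the lower end and ended 1123 bp above the higher end, so it reached about equally far on both sides. Its boundaries in the replicates differed by 88 bp on the lower side and by 19 bp on the higher side. E(spl)mbeta-HLH was the one protein-coding gene it touched, but the region also covered 100% of the noncoding genes lncRNA:CR45038 and lncRNA:CR45039. Polymerase on these transcripts and on E(spl)mbeta-HLH cannot be told apart in a list of regions.

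E(spl)m3-HLH lay under a weaker region at 3R:21845844-21848684. The region scored 1.22 in the combined list (rank 2881 of 5074, width 2.84 kb), 1.23 in replicate 1 (rank 2971 of 4874, width 2.79 kb) and 1.29 in replicate 2 (rank 2884 of 4822, width 2.74 kb), a replicate mean of 1.26 ± 0.0429 (SD, n = 2). These scores were below the median of each list, which was 1.37, 1.46 and 1.49.

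The region of E(spl)m3-HLH was placed unevenly over the gene. In the combined list it began 1701 bp below the lower end and stopped 165 bp short of the higher end. It covered 87.4% of the 1305 bp, and 87.0% ± 1.14 in the replicates (SD, n = 2). It also held the whole of lncRNA:CR43644, which lies below the gene, so the part of each in the score was not separated. No region touched the noncoding genes lncRNA:CR45037, lncRNA:CR45040 and lncRNA:CR43643 elsewhere in the complex.

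E(spl)m8-HLH, the member closest to gro, had its higher end alone in a region. That region, at 3R:21866402-21869606, began 440 bp above the lower end of the gene and covered 42.8% of its 769 bp in the combined list, with 40.4% and 43.0% in replicates 1 and 2. It went on across the gap of 727 bp between the genes into gro. The score belongs to 1 region over both genes, so E(spl)m8-HLH has no score of its own.

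E(spl)mdelta-HLH, E(spl)mgamma-HLH, E(spl)m5-HLH and E(spl)m7-HLH had no enriched region over any base in the 3 lists. The nearest region was 5283 bp from E(spl)mdelta-HLH and 3155 bp from E(spl)mgamma-HLH in the combined list, and in both cases it was that of E(spl)mbeta-HLH. It was 5892 bp from E(spl)m5-HLH and 2661 bp from E(spl)m7-HLH. The replicate lists gave 5255 to 5343 bp, 3127 to 3215 bp, 5886 to 5907 bp and 2659 to 2679 bp for the same 4 genes. None of the 8 genes was touched by a region that the authors typed as depleted. Such regions were few, at 67, 17 and 16 in the combined list and replicates 1 and 2, so their absence says little about these genes. A gene without a region had no polymerase that passed the authors' threshold, which is not the same as none.

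gro had a region over its lower end in every list. It scored 2.13 in the combined list (rank 1088 of 5074, width 3.21 kb), 2.12 in replicate 1 (rank 1182 of 4874, width 3.09 kb) and 2.18 in replicate 2 (rank 1064 of 4822, width 3.16 kb), with a replicate mean of 2.15 ± 0.0475 (SD, n = 2). The combined region began 1056 bp below the lower end of gro and ended 2148 bp above it. The replicate boundaries differed by 20 bp on the lower side and by 44 bp on the higher side.

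Most of the length of gro was outside this region. The gene spans 8.18 kb, and from the end of the region to the higher end of gro there remained 6.03 kb in the combined list, with 6.12 kb and 6.08 kb in replicates 1 and 2. The replicate regions covered 25.4% ± 0.381 (SD, n = 2) of the gene. The combined list covered 42.1%, because it held a further region inside gro at 3R:21872952-21874244 with a score of 0.23 and rank 4814 of 5074. Neither replicate list held that region, which was 1293 bp wide. The narrowest enriched region was 1304 bp in replicate 1 and 1303 bp in replicate 2. Whether its width or its low score bears on this was not tested.

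Past the higher end of gro the next region began 1117 bp away in the combined list, spanned 9.57 kb and scored 2.02. It lies over genes beyond the complex and did not reach gro in any list. Among the 521 protein-coding genes of 3R at least as long as gro, 319 in replicate 1 and 320 in replicate 2 had an end in a region. The median covered share of those genes was 10.6% and 10.8%, and 24.8% and 25.9% of them were covered at least as much as gro. In the combined list 325 had an end in a region, with a median covered share of 11.8%, and 17.2% of them were covered at least as much as gro. The covered share of gro was therefore above the median of these long genes in each list.

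The order of scores was E(spl)mbeta-HLH, then gro, then E(spl)m3-HLH, in all 3 lists. E(spl)mbeta-HLH exceeded gro by 0.42 in the combined list, with 0.39 and 0.42 in replicates 1 and 2, a mean of 0.41 ± 0.0169 (SD, n = 2). The score of E(spl)m3-HLH minus that of gro was -0.91 in the combined list, with -0.89 and -0.90 in replicates 1 and 2, a mean of -0.90 ± 0.00462 (SD, n = 2). Both gaps were larger than the spread between the replicates. No test was made, since with 2 replicates the smallest two-sided p of an exact permutation test is 0.5. The labels do not say that the replicates came from separate cultures, so this spread may be technical.

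Against the 3R genes with an end in a region, E(spl)mbeta-HLH was near the top of the range, gro near the upper quartile and E(spl)m3-HLH near the lower one. The median score of those genes was 1.68 in the combined list, with quartiles of 1.23 and 2.15. The score of E(spl)mbeta-HLH was above that of 89.1% of them in the combined list, with 86.2% and 88.7% in replicates 1 and 2. The score of gro was above 74.1%, 72.6% and 75.8%, and that of E(spl)m3-HLH above 24.6%, 24.0% and 24.6%.

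Taken among short genes alone, where 295 had an end in a combined region with a median score of 1.61, E(spl)mbeta-HLH was above 94.2% and E(spl)m3-HLH above 25.8%. The replicates gave 90.2% and 93.8% for E(spl)mbeta-HLH. The widths were ordinary, since 58.9% of combined regions were narrower than that of E(spl)mbeta-HLH, 58.5% were narrower than that of gro and 52.4% were narrower than that of E(spl)m3-HLH.

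**Figure D2:**
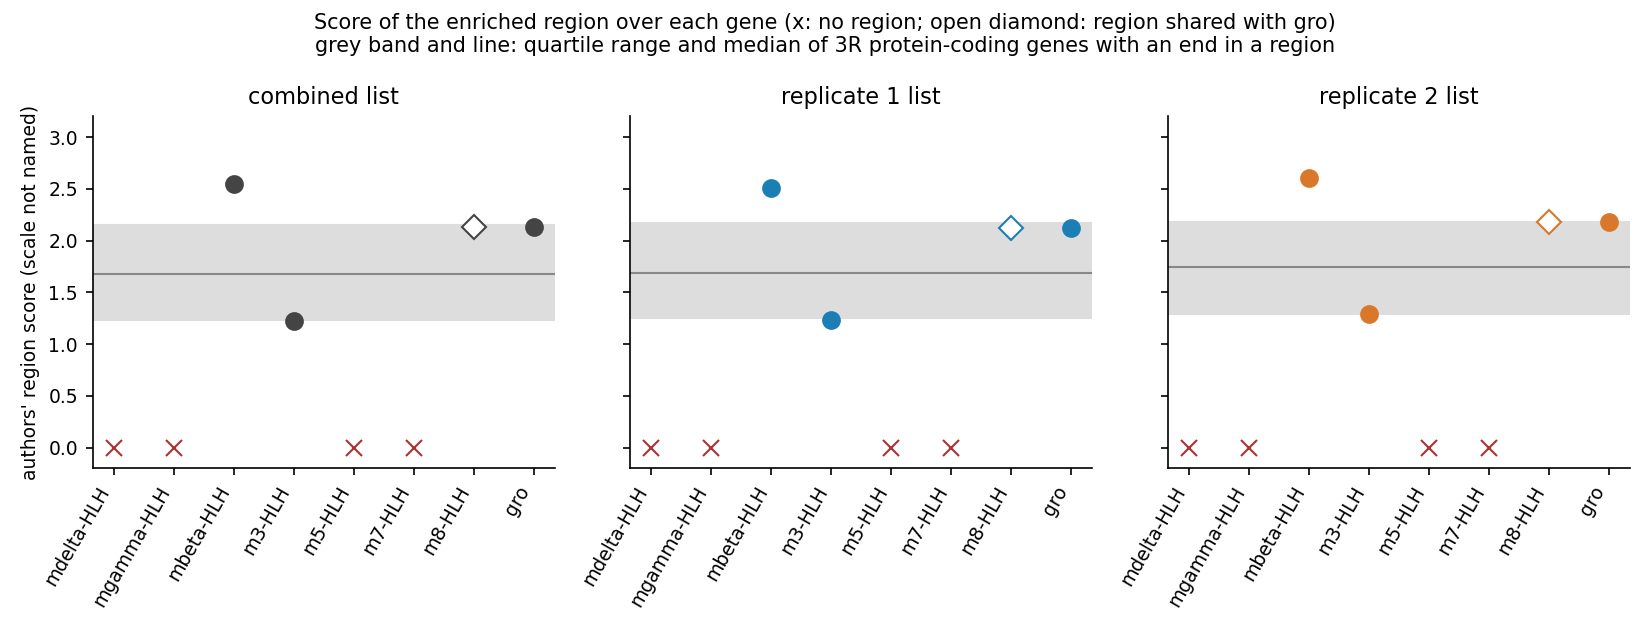
The authors' score of the region over each of the 8 genes, 1 panel for each list, with the median (line) and the range between the quartiles (band) of 3R protein-coding genes that have an end in a region. E(spl)mbeta-HLH is above the band in each list, at 2.55, 2.51 and 2.60, and crosses mark the 4 HLH genes with no region.

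Likeness to other 3R genes was measured as the mean absolute difference of the scores over the 2 replicates, among genes under another region. For gro the nearest were Ravus and Su(var)3-7, both at 0.00921, which had the same scores of 2.11, 2.11 and 2.20 in the combined list and replicates 1 and 2. CG31542 followed at 0.0112. For E(spl)mbeta-HLH the nearest were cu, SdhC and Tctp, all at 0.0252 with scores of 2.57, 2.56 and 2.60. Genes with equal scores in all 3 lists may lie under 1 region, which was not checked, so they may not be separate cases. Likeness in a region score is a description of 2 libraries and says nothing else of these genes.

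The 5 other genes of the complex lie between the HLH genes. E(spl)malpha-BFM, E(spl)m2-BFM, E(spl)m4-BFM and E(spl)m6-BFM encode Bearded-family proteins, which hold back the ubiquitin ligase Neuralized. E(spl)m1, listed in the gene table as Kaz-m1, encodes a Kazal-type protein. None of the 5 overlapped an enriched region in any list. E(spl)m4-BFM came nearest, at 859 bp from the region of E(spl)m3-HLH in the combined list, and E(spl)m6-BFM was farthest at 6633 bp.

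With these genes counted, 9 of the 13 genes of the complex and gro lacked a region in each list. An end was in a region for 4 of the 13 (30.8%), and those of E(spl)m8-HLH and gro were in the same region. In the combined list the share was 57.8% for 3R genes, and 48.4% for those as short as the HLH genes. gro and some of the other genes are outside that range of length, so neither share is a matched background. No test was made over the 13 genes. The 9 genes fell into 3 stretches without regions. The stretch from the next region below to that of E(spl)mbeta-HLH measured 19.7 kb in the combined list and held E(spl)mdelta-HLH and E(spl)mgamma-HLH. The next measured 13.0 kb and held E(spl)malpha-BFM, E(spl)m1 and E(spl)m2-BFM. The third measured 17.7 kb and held E(spl)m4-BFM, E(spl)m5-HLH, E(spl)m6-BFM and E(spl)m7-HLH.

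Stretches of this length were not rare on 3R. Of the 1039 gaps between combined regions of the arm, whose median was 6.70 kb, 28.6% were at least as long as the first, 37.2% as the second and 30.8% as the third. Enriched regions covered 14.8% of the 43.4 kb from E(spl)mdelta-HLH to E(spl)m8-HLH in the combined list, with 14.4% and 14.6% in replicates 1 and 2. The whole of 3R was covered to 16.6%, 15.2% and 15.5%. The complex thus held about as much enriched sequence as the arm, gathered over few of its genes.

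The flanks of the complex differed from each other. From E(spl)mdelta-HLH to the higher end of gro, over 52.3 kb, 20.2% was covered in the combined list, with 17.3% and 17.5% in replicates 1 and 2. The same length below the complex was covered to 3.96%, 3.93% and 3.88%. The same length above gro was covered to 46.9%, 46.8% and 44.4%. In each list the complex was between its flanks.

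The 7 Notch pathway genes of 3R that were listed from outside the complex all had a region over an end. An enriched region held an end of 7 of 7 such genes in each list, against the 57.8% of 3R genes in the combined list, and both ends of 2 of 7, against 29.8% in the combined list and 26.5% in each replicate. The list holds only genes that the placement could reach, those of 3R, and no test was made over it. It was chosen with earlier results of these data known, so the count is no result about the pathway. With regions at or above the median score, 3 of the 7 had an end in one, against 39.4% of 3R genes. Hairless (H) is counted here and again among the genes that act with Groucho, below.

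The ligand genes differed widely. Ser, which encodes Serrate, scored 2.89 in the combined list (rank 306 of 5074), 2.71 in replicate 1 and 3.05 in replicate 2. Delta (Dl), the other ligand, scored 1.00, 0.97 and 1.03 over its higher end. The Dl region covered 4.86% of the 23487 bp of the gene in the combined list, and regions covered 13.3% of the 22178 bp of Ser, so both ligand genes were mostly outside regions. A second, weak region inside Ser scored 0.17 in the combined list and 0.31 in replicate 1, and was missing from replicate 2.

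Genes that process the ligand or the receptor were occupied at middling scores. Nicastrin (nct), a subunit of the gamma-secretase that cuts Notch, scored 1.90, 1.97 and 1.87 in the combined list and replicates 1 and 2. The tetraspanin gene Tsp86D scored 1.69, 1.69 and 1.70 within a region of 7.47 kb that touched 4 protein-coding genes. rumi, which encodes a glycosyltransferase acting on Notch, scored 1.33, 1.37 and 1.33. neur, which encodes the ubiquitin ligase Neuralized, held 3 separate regions in each list, which scored 1.26, 1.33 and 1.35 over the higher end and 1.20, 1.26 and 1.19 over the lower end. The third, inside neur, was the strongest of them at 1.84, 1.84 and 1.85. Several of these regions touch neighbouring genes too, so the score is not that of 1 gene alone.

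Of the genes that join Groucho in repression or act as repressors beside it, about as large a share was occupied as of 3R genes in general. An end was in a region for 4 of 6 in the combined list and 3 of 6 in each replicate, against the 57.8%, 56.6% and 56.7% of 3R genes. Hairless (H), the antagonist that brings Groucho and CtBP to Su(H), scored 1.18 in the combined list, with 1.17 and 1.23 in replicates 1 and 2. CtBP, a corepressor, scored 1.61, 1.60 and 1.65 over a region of 12.5 kb that reached along most of the gene.

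HDAC3, a histone deacetylase of corepressor complexes, lay in a shared region of 17.3 kb that touched 8 protein-coding genes in the combined list and scored 1.71. In replicate 2 it lay in a region of 2.54 kb that scored 1.11, so its values depend on how the region was divided. The repressor genes hkb and tll, of embryonic terminal patterning, had no region in any list. Dr, a homeobox repressor gene, had one of 1.13 kb with a score of 0.51 in the combined list alone. H and CtBP scored below gro in all 3 lists, as did HDAC3.

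**Figure D3:**
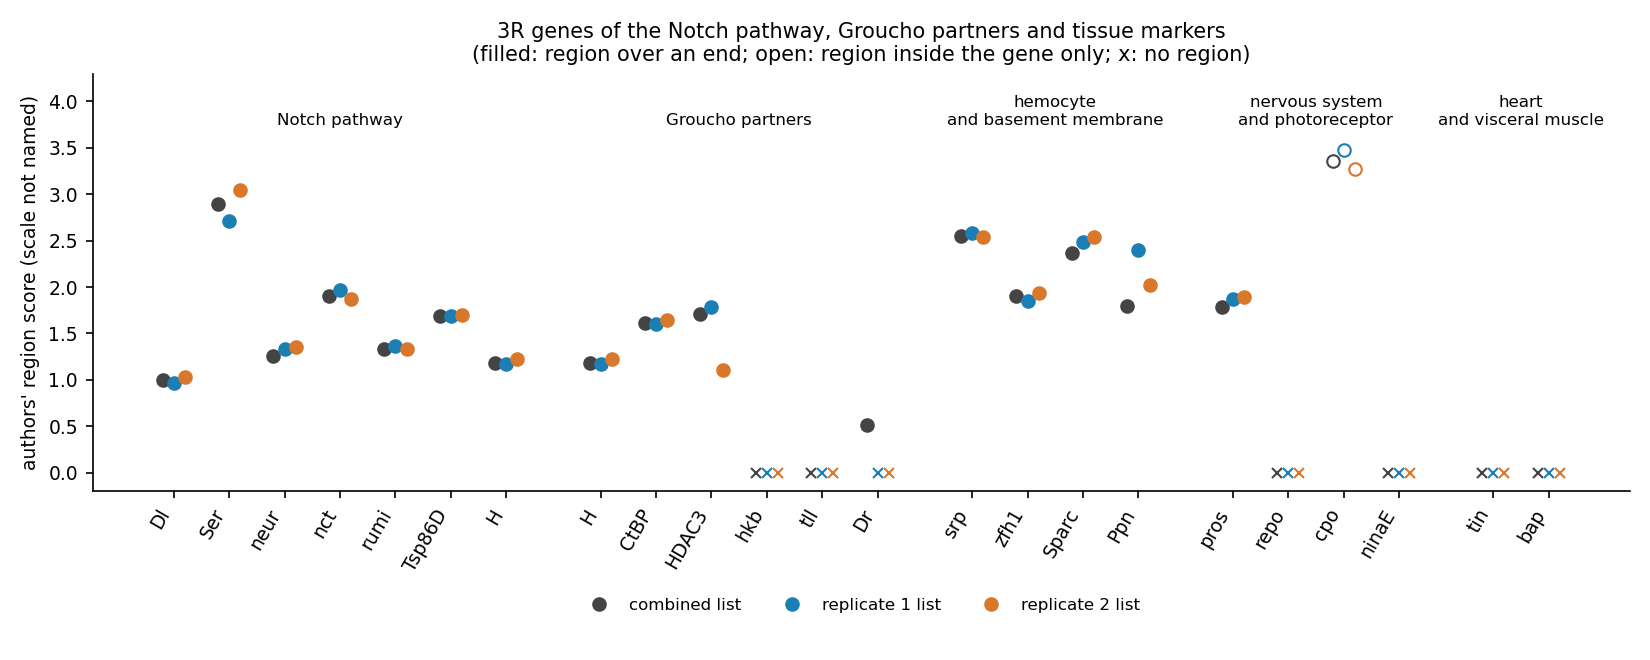
The authors' region score for 3R genes of the Notch pathway, Groucho partners and other repressors, and tissue markers, with 1 point for each list. Filled points have a region over an annotated end, open points have one inside the gene only, and crosses have none. All 7 listed Notch pathway genes have a filled point in each list, while hkb, tll, repo, ninaE, tin and bap have none.

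The markers on 3R were set against the label of the cells. Kc167 is generally described as resembling blood cells. Of 4 hemocyte and basement membrane markers, srp, zfh1, Sparc and Ppn, all 4 had an end in a region in each list. The shares of 3R genes were 57.8%, 56.6% and 56.7% in the combined list and replicates 1 and 2. The 4 combined scores were 2.55, 1.90, 2.37 and 1.80. These regions touched 1, 2, 9 and 3 protein-coding genes in that order, so only the score of srp comes from a region on 1 protein-coding gene. Of 4 nervous system and photoreceptor markers, 1 had an end in a region in each list. That gene was pros, with scores of 1.78, 1.87 and 1.89 in the combined list and replicates 1 and 2. Its region touched 5 protein-coding genes in each list. The combined score was about that of Ppn, but the replicate lists held 2 regions over Ppn. These scored 2.40 and 0.86 in replicate 1, and 2.02 and 0.79 in replicate 2. cpo was touched inside the gene only, most strongly by a region that scored 3.36 in the combined list (rank 73 of 5074), above every hemocyte marker, and repo and ninaE had none. The heart and visceral muscle markers tin and bap had 0 regions of 2 genes, although a region scoring 2.96 lay 455 bp from tin in the combined list. The marker lists too were chosen with earlier results of these data known, and no test was made over them. Their counts are therefore no result about the identity of the cells. These are regions of polymerase and not transcript levels.

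Placing the genes rested on moving release 6 positions by 4174278 bp, and the placement was checked against the lists. With it, 57.8% of 3387 genes had an end in a combined region. When the genes were moved in steps of 500 bp up to 50 kb either way, the highest share was at the placement used, in each of the 3 lists and also among the 550 genes within 2 Mb of gro (57.6% in the combined list). At offsets of 20 kb or more the share over 3R was between 25.5% and 31.9% in the combined list, 23.6% and 29.4% in replicate 1, and 23.9% and 29.9% in replicate 2. A local difference between the releases smaller than a region would not be seen by this check.

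**Figure D4:**
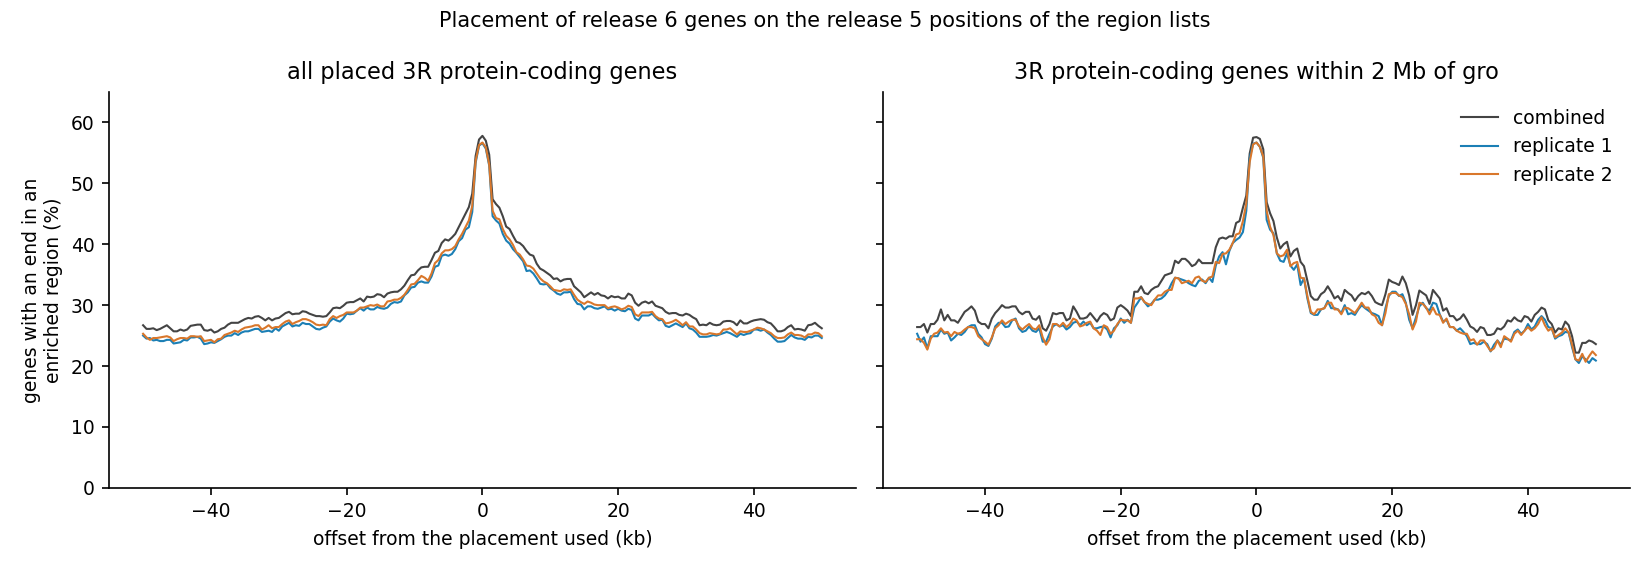
Percent of protein-coding genes with an annotated end in an enriched region, against the offset in kb from the placement used, for all placed genes of 3R (left) and those within 2 Mb of gro (right), with 1 line for each list. Each line peaks at an offset of 0, at 57.8% for 3R and 57.6% near gro in the combined list.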

How the data were processed

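Enriched regions of Ser5-phosphorylated polymerase were compared in 2 ChIP replicates of Kc167 cells, fixed in 1.8% formaldehyde for 10 min, per the labels' protocols. Bowtie 0.12.7 is the tool named, per the submitters' processing notes. Not given in the sources used here are the region caller, its threshold and control, how reads with several matches were treated, and how the combined list was made. The authors deposited a score for each region without naming its scale, above 0 in enriched and below 0 in depleted regions. Positions are FlyBase release 5, per the file headers.

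Gene names and positions came from the RefSeq table of release 6, moved on 3R by 4174278 bp. Of 4226 genes of 3R, 4206 could be placed. Genes of other arms were not placed. No release 6 position is printed. The table holds no strand, so both annotated ends replaced the planned start site. Sequences were not used here, and the planned motif and protein comparisons were not made. A region was over an end when it held that base, and over a gene at an overlap of at least 1 bp. Shares of members are given beside those of all placed protein-coding genes, with no test, because genes are not replicates. Where gro was compared with the median HLH gene, the region shared with E(spl)m8-HLH was left out for the latter.

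Named genes were the members, the rest of the complex, the fixed lists and, for gro and the highest-scoring HLH gene, the 3 genes nearest in replicate scores. The members and lists were chosen with earlier results of these data known. The counting was tested on simulated regions. Alternatives were each replicate list, a placement moved by 200 bp, a window of 250 bp, regions at or above the median score, a 50% overlap of the gene, joining of regions under 500 bp apart, and all 3R genes. Python 3.11.15, numpy 2.4.6, pandas 2.3.3 and matplotlib 3.10.9 were used.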

Additional observations from a re-analysis of the deposited data

How the results depend on the processing

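The count of 3 HLH genes with an end in a region was the same in each replicate list, with the placement moved by 200 bp either way, with a window of 250 bp and with nearby regions joined. It was 2 with regions at or above the median score and 1 when both ends were required, an alternative chosen after seeing the data. The score of gro minus the median of the HLH genes with a region of their own was 0.25, and 0.24 to 0.25 in the replicate lists. It turned to -0.42 with regions at or above the median score, because E(spl)m3-HLH then drops out and E(spl)mbeta-HLH alone remains. It was 0 when the region shared by gro and E(spl)m8-HLH was kept, also chosen after seeing the data. So no single value stands for gro against the HLH genes.

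The share of 3R genes with an end in a region, 57.8%, was 56.6% to 56.7% in the replicate lists, 57.5% with the placement moved up by 200 bp, 59.3% with the window, 39.4% with regions at or above the median score, 52.4% over all 3R genes and 29.8% with both ends. The covered share of the complex with gro, 20.2%, was 17.3% to 17.5% in the replicate lists. With regions at or above the median score, 3 of 7 Notch pathway genes and 2 of 6 Groucho partners had an end in a region, and with both ends required 2 of each list did. No paired analysis was possible because no region list of an input library is used here and the ChIP replicates form 1 group.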
